A study of Mus musculus with 4 samples.

Results

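Chemokines are small secreted proteins that guide leukocytes, and their receptors are G protein-coupled receptors on the cells that respond. The members described here were all genes of the deposited tables whose symbol names a CC, CXC, CX3C or XC chemokine or 1 of their signalling receptors (Ccl, Cxcl, Cx3cl1 and Xcl1; Ccr, Cxcr, Cx3cr1 and Xcr1). The rule found 56 genes of 33954, of which 38 are ligands and 18 are receptors. In all, 35 of them, 25 ligands and 10 receptors, reached 20 UMIs (unique molecular identifiers, each counting 1 captured RNA molecule) in at least 1 named cell class.

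Nuclei of whole mouse hearts were sequenced in 4 groups with 1 library each: Q150X 3 days after myocardial infarction (3dpMI), wild type (WT) 3dpMI, Q150X at homeostasis and WT at homeostasis. Q150X is a stop-gained allele of Vegfa, the gene of vascular endothelial growth factor A, made in mice with CRISPR/Cas9. The design text marks the mutant hearts "HO" and calls the homeostatic animals adult. Sex, exact age and the number of hearts in a library are not given in the sources used here.

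In the infarcted heart, CCR2 ligands such as CCL2 and CCL7 are known for drawing monocytes out of bone marrow and blood, and CXCR2 ligands such as CXCL1, CXCL2 and CXCL5 for drawing neutrophils. CXCL12, through CXCR4, holds progenitor cells in their niche and guides cells to injured vessels. CCL21 acts on CCR7 and brings dendritic cells and T cells into lymphatic vessels.

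With 1 library per group there is no replicate check, no test was made and no p-value is given. Levels are CPM, the UMIs of a gene per 1000000 UMIs of that class in that library, and intervals in brackets are exact 95% intervals, Poisson for a level and conditional binomial for a ratio of levels. They cover counting error only, and not the difference between animals, dissections or library preparations. The libraries kept 7397 nuclei in Q150X 3dpMI, 8156 in WT 3dpMI, 6142 in Q150X homeostasis and 4173 in WT homeostasis. Their depth differed, with 27208043 and 25412124 UMIs at 3dpMI in Q150X and WT and 8383921 and 5511572 UMIs at homeostasis in Q150X and WT. The median nucleus held 2667 UMIs in Q150X and 2004 in WT at 3dpMI, and 967 in Q150X and 919 in WT at homeostasis. Homeostatic values are therefore the less precise, and a gene at 0 there was not detectable at that depth. Cell classes were named from marker genes; each name stands for nuclei like that type, without the word "like" being repeated. All 12 cardiomyocyte markers were found in the cardiomyocytes of every library. Between 39 and 117 barcodes were shared by a pair of libraries, where independent draws from the kit's barcode list would share 38.97 to 101.

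The makeup of the hearts differed between genotypes, which bears on every value taken over all nuclei. Macrophages and monocytes were 29.3% of nuclei in Q150X and 14% in WT at 3dpMI, and 4.28% in Q150X and 1.17% in WT at homeostasis. Cardiomyocytes were 6.06% of nuclei in Q150X and 14.2% in WT at 3dpMI, and 13.7% in Q150X and 37.6% in WT at homeostasis. In a sum over all nuclei, more cells of a type and more RNA per cell cannot be told apart. The same class was also held by different clusters: cluster 7 held the largest share of vascular endothelial nuclei in Q150X 3dpMI (45.5%). Cluster 1 held the largest share in WT 3dpMI (55.7%), Q150X homeostasis (59.8%) and WT homeostasis (84.1%). Among fibroblasts, cluster 2 held the largest share in Q150X 3dpMI (66.8%) and WT 3dpMI (42.7%), and cluster 0 in Q150X homeostasis (58.2%) and WT homeostasis (56.8%).

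Several members are neighbours in the genome. In the RefSeq annotation, Ccl2, Ccl7, Ccl11, Ccl12, Ccl8 and Ccl1 follow each other with no other protein-coding gene between them. The same holds for Ccl5, Ccl9, Ccl6, Ccl3 and Ccl4. Cxcl3, Cxcl15, Cxcl1 and Cxcl2 form a run of 4, and Cxcr6, Xcr1 and Ccr1 a run of 3. The promoters of 4 CXC ligands are shown because Cxcl1, Cxcl2 and Cxcl3 lie in 1 run and bind the same receptor yet differed in the cells that carried them, and because Cxcl10, a target of interferon, was read at 291 CPM in Q150X and 164 in WT in a monocyte cluster led by interferon-induced genes. Each sequence is 200 bases, from base 230 to base 31 before the annotated start, on the gene's strand, from RefSeq GRCm38.p6, an earlier build than the GRCm39 of the counts. Capitals mark matches on either strand to a kappaB motif, bound by NF-kappaB (GGG, any 3 bases, TTCC), or to an interferon-stimulated response element (GAAA, any 2 bases, GAAA).
Cxcl1, chr5:90891015-90891214, plus strand: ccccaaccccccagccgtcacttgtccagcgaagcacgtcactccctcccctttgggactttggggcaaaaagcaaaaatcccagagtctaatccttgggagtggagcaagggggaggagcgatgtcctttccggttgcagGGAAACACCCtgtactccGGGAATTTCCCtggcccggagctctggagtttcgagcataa
Cxcl2, chr5:90903669-90903868, plus strand: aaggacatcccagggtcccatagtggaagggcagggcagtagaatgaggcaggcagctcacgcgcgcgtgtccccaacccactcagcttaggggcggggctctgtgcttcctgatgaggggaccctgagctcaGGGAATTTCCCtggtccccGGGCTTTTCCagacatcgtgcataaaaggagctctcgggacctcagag
Cxcl3, chr5:90785871-90786070, plus strand: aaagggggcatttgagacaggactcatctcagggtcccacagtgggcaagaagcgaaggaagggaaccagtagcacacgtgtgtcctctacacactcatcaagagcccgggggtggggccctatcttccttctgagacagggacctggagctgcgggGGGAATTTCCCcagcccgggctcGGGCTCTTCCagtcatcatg
Cxcl10, chr5:92348920-92349119, minus strand: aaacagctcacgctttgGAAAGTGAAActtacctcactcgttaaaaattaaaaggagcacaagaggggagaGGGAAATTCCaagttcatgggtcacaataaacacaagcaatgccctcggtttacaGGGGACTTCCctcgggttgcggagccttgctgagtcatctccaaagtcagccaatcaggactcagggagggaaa
In Cxcl1 the kappaB letters lie 89 to 80 and 71 to 62 bases before the start, the downstream match overlapping a match of the other strand at 70 to 61. Cxcl2 has them at 97 to 88, overlapped on the other strand at 96 to 87, and at 78 to 69, and Cxcl3 at 73 to 64, overlapped at 72 to 63, and at 50 to 41. Cxcl10 holds the interferon element at 213 to 204 and kappaB letters at 159 to 150 and 104 to 95. Over the 27025 promoters of the table, whose windows run from 250 bases before the start to 50 after it, 5.52% hold the kappaB letters and 3.49% the interferon element. Of the 42 members with a promoter there, 8 hold the kappaB letters (Ccl1, Ccl9, Ccl20, Ccr3, Cxcl1, Cxcl2, Cxcl3 and Cxcl10) and 3 the interferon element (Ccl19, Cxcl10 and Cxcl14). A match describes the letters only.

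Each reported member was placed in the class of its highest level, over the libraries together, among the classes where it had at least 20 UMIs. Macrophages and monocytes were that class for 13 members: the ligands Ccl2, Ccl3, Ccl4, Ccl6, Ccl7, Ccl8, Ccl9, Ccl12, Ccl24, Cxcl3 and Cxcl10, and receptors that include Cxcr4. Fibroblasts were that class for 8: Ccl11, Ccl19, Ccl25, Cx3cl1, Cxcl1, Cxcl5, Cxcl14 and the receptor Ccr9. Neutrophils led for Cxcl2, Ccr1 and Cxcr2 (for Cxcl2 and Ccr1 mainly from Q150X UMIs), dendritic cells for Cxcl16, Ccr2 and Cx3cr1, and B cells for Ccr7 and Cxcr5. Vascular endothelium led for Cxcl9 and Cxcl12, lymphatic endothelium for Ccl21a, T or NK cells for Ccl5, and cardiomyocytes for Ccl27a and Cxcr6. Of the other 21 members, Ccl20, Ccl21b, Ccl21d, Ccl27b and Cxcl15 had no UMI. The remaining 16 stayed between 1 and 19 UMIs in every class: Ccl1, Ccl17, Ccl22, Ccl26, Ccl28, Cxcl13, Cxcl17, Xcl1, Ccr3, Ccr4, Ccr6, Ccr8, Ccr10, Cxcr1, Cxcr3 and Xcr1. Ccl24 and Ccr7, with 20 UMIs in their class, were the members just inside this minimum. Nuclei of clusters that no marker list named held 2862 of the 38852 member UMIs (7.37%).

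**Figure D1:**
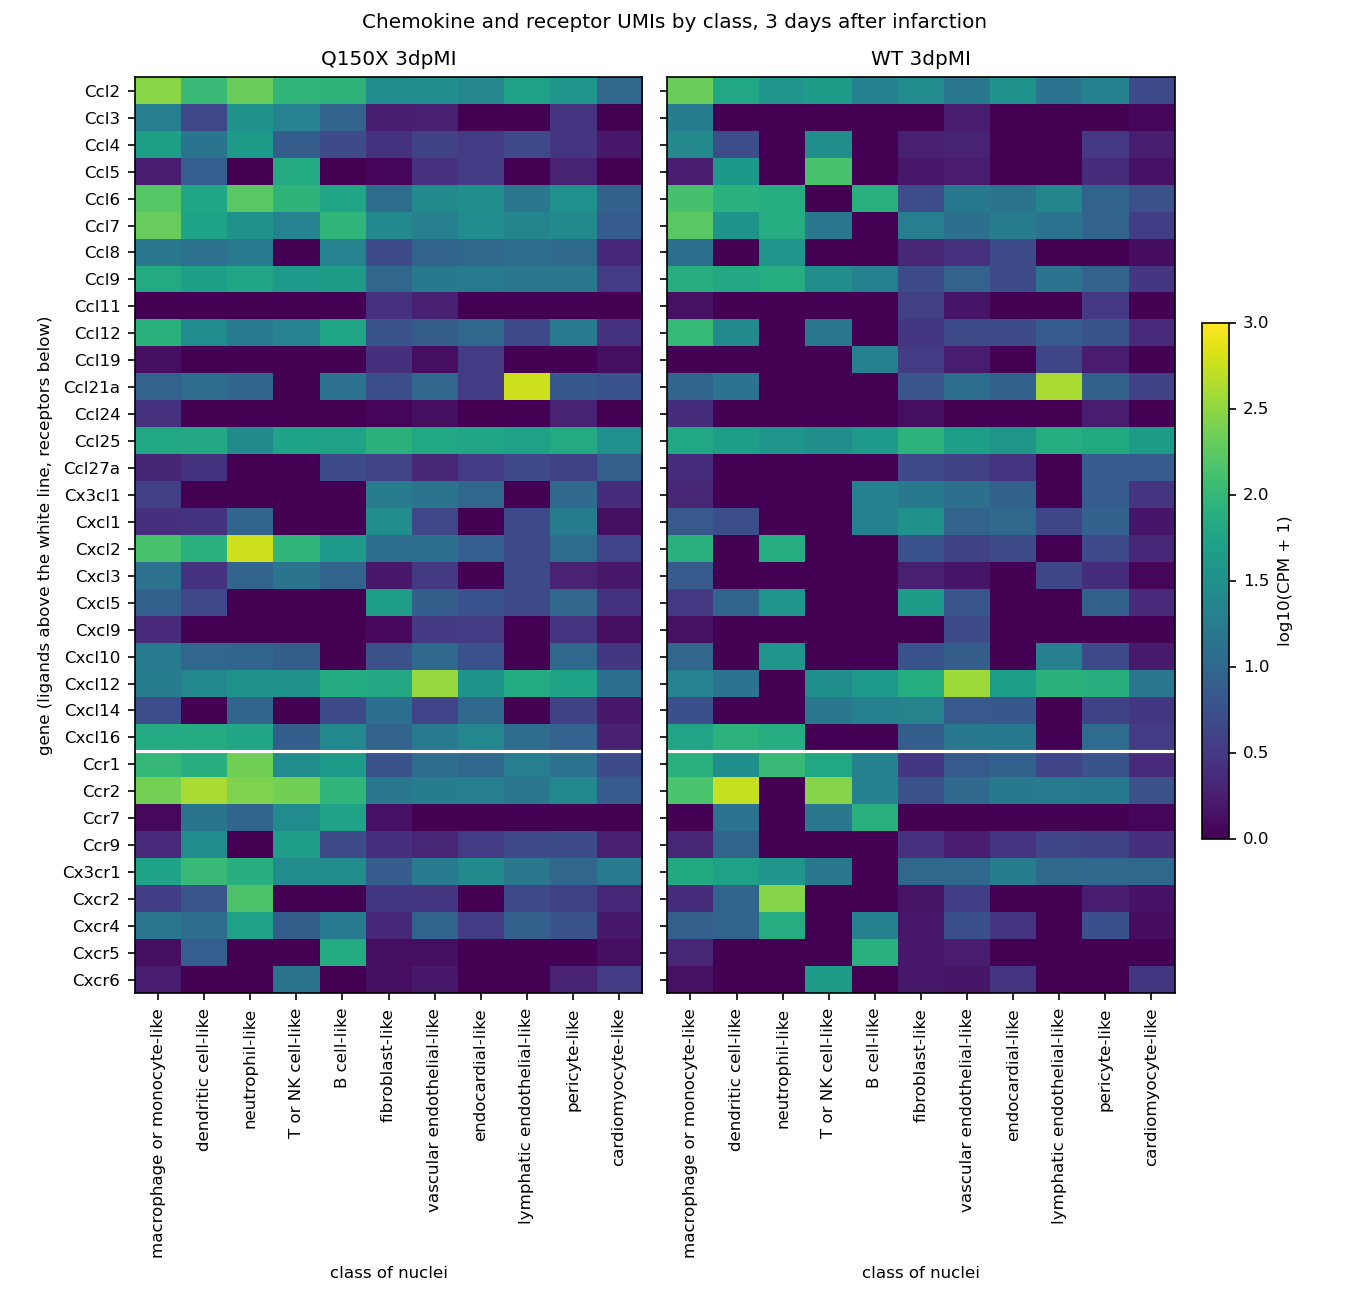
Level of reported chemokine genes (rows, ligands above the white line and receptors below) in each cell class (columns) at 3dpMI, as log10(CPM + 1), with Q150X in the left panel and WT in the right. The bright cells include Cxcl12 in vascular endothelium (346 CPM in Q150X and 365 in WT), Ccl21a in lymphatic endothelium (584 and 416) and Ccr2 in dendritic cells (417 and 545).

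The ligands of CCR2 were carried by macrophages and monocytes after infarction. In that class Ccl2 stood at 289.6 CPM (276–304) in Q150X and 209 CPM (192–227) in WT at 3dpMI, against 21.6 CPM in Q150X and 0 in WT at homeostasis. Both infarcted hearts were above both uninjured hearts, and the Q150X level was 1.39 times WT (1.26–1.53) at 3dpMI. Macrophages and monocytes held 68.2% (66.3–70) of all Ccl2 UMIs in Q150X and 54.3% (51.3–57.4) in WT at 3dpMI, and fibroblasts held 11.4% in Q150X and 18.5% in WT. Within the class, Ccl2 was at 360.3 CPM in Q150X and 330.2 in WT among monocytes, a ratio of 1.09. Among macrophages with repair markers it was at 401 CPM in Q150X and 302 in WT (1.33, 1.11–1.599), and among resident macrophages at 145 in Q150X and 104 in WT (1.39). Cluster 32, a monocyte cluster led by the interferon-induced genes Mx1, Slfn4 and Rsad2, had 738 CPM of Ccl2 in Q150X and 492 in WT. Monocytes were 48.7% of the class in Q150X and 33% in WT at 3dpMI, repair macrophages 21.3% and 17.5%, and resident macrophages 21.2% and 37.4%. The rest, 8.81% and 12.1%, was cluster 26, led by genes that include Mki67 and Top2a. The parts were named against the rest of the class only. Cluster 18 held 563 of 1057 monocyte nuclei in Q150X and 228 of 378 in WT. Its class markers included C1qa, Mertk and Mrc1 but not Plac8, Ly6c2 or Vcan, so the monocyte name is loose there.

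Ccl7, a CCR2 ligand encoded beside Ccl2, had 197 CPM (186–209) in Q150X and 171 CPM (156–188) in WT macrophages and monocytes at 3dpMI, and 32.4 CPM in Q150X and 0 in WT at homeostasis. The genotype ratio in that class was 1.15. Among the named parts of the class, each pooled over its clusters, Ccl7 was highest in repair macrophages, at 310.1 CPM in Q150X and 296 in WT. Resident macrophages had 159 CPM in Q150X and 130.3 in WT. Ccl12, a mouse CCR2 ligand, had the opposite order, at 81.7 CPM (74.6–89.4) in Q150X and 100.5 CPM (88.9–113) in WT at 3dpMI, a ratio of 0.814 (0.699–0.948). At homeostasis Ccl12 was at 32.4 CPM in Q150X and 0 in WT. Ccl8, a chemokine of resident macrophages in other tissues, was at 15.1 CPM in Q150X and 11.9 CPM in WT in that class at 3dpMI. The class had no Ccl8 UMI at homeostasis in either genotype, where the whole libraries held 3 in Q150X and 0 in WT.

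Ccl6, Ccl9, Ccl3 and Ccl4 form the other CC gene run. Ccl6, a CCR1 ligand made by myeloid cells, had 159 CPM in Q150X and 132 CPM in WT macrophages and monocytes at 3dpMI, and 227 CPM in Q150X and 55.8 in WT at homeostasis. In uninjured Q150X macrophages 42 UMIs were counted, while the whole WT homeostatic library held only 11 Ccl6 UMIs. Ccl9, also a CCR1 ligand, had 66.5 CPM in Q150X and 73.8 in WT at 3dpMI, and 70.2 CPM in Q150X and 112 in WT at homeostasis on 13 and 4 UMIs. The Ccl9 values of the 4 libraries overlapped within their intervals. Ccl3, which binds CCR1, was at 18.1 CPM in Q150X and 17.4 in WT macrophages and monocytes at 3dpMI. That class had no Ccl3 UMI at homeostasis in either genotype, where the whole libraries held 0 in Q150X and 2 in WT. Ccl4, a close relative of Ccl3, was at 47.7 CPM (42.3–53.6) in Q150X and 24.8 CPM (19.2–31.5) in WT at 3dpMI, a ratio of 1.92 (1.47–2.55), also with no homeostatic UMI. Ccl4 differed in the same direction in every part of the class: repair macrophages had 74.7 CPM in Q150X and 41.4 in WT, monocytes 40.1 in Q150X and 26.4 in WT, and resident macrophages 35.3 in Q150X and 20.5 in WT. Ccl3 and Ccl4 overlap in the annotation, so reads could be split between them. Ccl5, a product of T and NK cells, had only 10 UMIs in Q150X (67.2 CPM) and 9 in WT (135 CPM) at 3dpMI in those cells. Ccl24, an eosinophil chemokine, had 10 UMIs in Q150X and 4 in WT macrophages at 3dpMI, and 6 in Q150X and 0 in WT at homeostasis.

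The CXCR2 ligands were divided between myeloid cells and fibroblasts. Cxcl2 in neutrophils was at 584 CPM (454–739) in Q150X and 71.04 CPM (8.603–257) in WT at 3dpMI, from 69 and 2 UMIs in 106 and 29 nuclei, and neutrophils were its highest class in Q150X but not in WT. The ratio was 8.22 with an interval of 2.19 to 69.2, and no neutrophil was found at homeostasis. In macrophages and monocytes Cxcl2 was at 138 CPM in Q150X and 78.97 in WT at 3dpMI (1.74, 1.495–2.03), against 5.403 CPM in Q150X and 0 in WT at homeostasis. Within that class it was highest in monocytes, with 221 CPM in Q150X and 134 in WT (1.66, 1.29–2.14). The difference was not uniform over monocytes and macrophages: monocyte cluster 20, led by Klra2 and Sirpb1c, had 419 CPM in Q150X and 169 in WT, and cluster 18, which held the largest share of the Q150X class, had 72.6 in Q150X and 121 in WT. Dendritic cells had 81.4 CPM in Q150X from 47 UMIs and none in WT, which makes the Q150X level at least 6.33-fold higher when 0 is set to a floor of 3 counts per library. Cxcl3, a neighbour of Cxcl2, had 12.5 CPM in Q150X and 6.302 in WT macrophages and monocytes at 3dpMI, from 73 and 17 UMIs, and none at homeostasis.

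Cxcl5 and Cxcl1 were fibroblast genes here. Cxcl5, known as a neutrophil attractant of epithelium and stroma, had 46.9 CPM (42.7–51.2) in Q150X and 44.1 CPM (39.4–49.3) in WT fibroblasts at 3dpMI, against 0.305 CPM in Q150X and 0 in WT at homeostasis. Fibroblasts held 478 of its UMIs in Q150X and 315 in WT at 3dpMI, and 1 in Q150X and 0 in WT at homeostasis. The 3dpMI level was 154 times homeostasis (27.4–6079) in Q150X and at least 19.6-fold higher in WT, while the genotypes overlapped. Raising the minimum to 1000 UMIs per nucleus lowered the Q150X ratio to 99.1. Cxcl1 had 28.4 CPM in Q150X and 32.9 in WT fibroblasts at 3dpMI, and 5.18 CPM in Q150X and 1.498 in WT at homeostasis. The injury ratio was 5.48 in Q150X and 21.98 in WT, the second resting on 2 homeostatic UMIs; a marker gate on each nucleus gave 10.3 in Q150X, and the 1000-UMI minimum 8.97 in WT. Of the members tested in macrophages and monocytes at 3dpMI, Cxcl5 (43 and 6 UMIs in Q150X and WT; ratio 3.31, 1.401–9.502) and Cxcl1 (9 and 16 UMIs; 0.259) were those past 2-fold between genotypes, at levels far under those of fibroblasts.

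Cxcl12 was the member of the vessel wall. Vascular endothelial cells had 346 CPM (327–366) in Q150X and 365 CPM (347–383) in WT at 3dpMI, and 257 CPM (216–303) in Q150X and 626 CPM (561–697) in WT at homeostasis. The infarcted hearts were close to each other (ratio 0.948, 0.879–1.02), and the WT uninjured heart stood above all others, with Q150X at 0.4102 of it (0.335–0.5003). Across injury the ratio was 1.35 (1.13–1.61) in Q150X and 0.582 (0.517–0.657) in WT. With nuclei weighted equally the homeostatic ratio was 0.537, which is no longer past 2-fold, and the WT injury ratio passed 2-fold at a minimum of 1000 UMIs (0.402) and under median-of-ratios scaling (0.478).

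The endothelial difference at homeostasis ran the same way in capillary and arterial clusters. Cluster 1, led by the capillary genes Cd300lg and Btnl9, had 353 CPM in Q150X and 659 in WT at homeostasis, and 556 CPM in Q150X and 463 in WT at 3dpMI. Cluster 12, led by the arterial genes Gja5, Efnb2 and Sema3g, had 293 CPM in Q150X and 1128 in WT at homeostasis on 7 and 29 UMIs. It had 662 CPM in Q150X and 511 in WT at 3dpMI. Cluster 7, led by Kit and Col18a1, had 284 CPM in Q150X and 300.4 in WT at 3dpMI and 2 and 3 UMIs at homeostasis. Cluster 9, led by the venous genes Selp and Vwf, was at 125 CPM in Q150X and 114 in WT at 3dpMI. At homeostasis it had the reverse order of clusters 1 and 12, with 106 CPM in Q150X and 42.7 in WT. This low cluster held 227 of 726 endothelial nuclei in Q150X and 56 of 542 in WT at homeostasis. The class ratio therefore also takes in a difference in makeup, whose part was not tested. Summed over 12 cardiomyocyte markers, endothelial nuclei carried 964 CPM in Q150X and 4365 in WT at 3dpMI, and 8079 in Q150X and 3519 in WT at homeostasis, while 12 endothelial markers summed to 10410 CPM in Q150X and 11281 in WT at 3dpMI, and 10815 in Q150X and 12404 in WT at homeostasis. The part of the cardiomyocyte transcripts in the Cxcl12 difference was not tested.

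**Figure D2:**
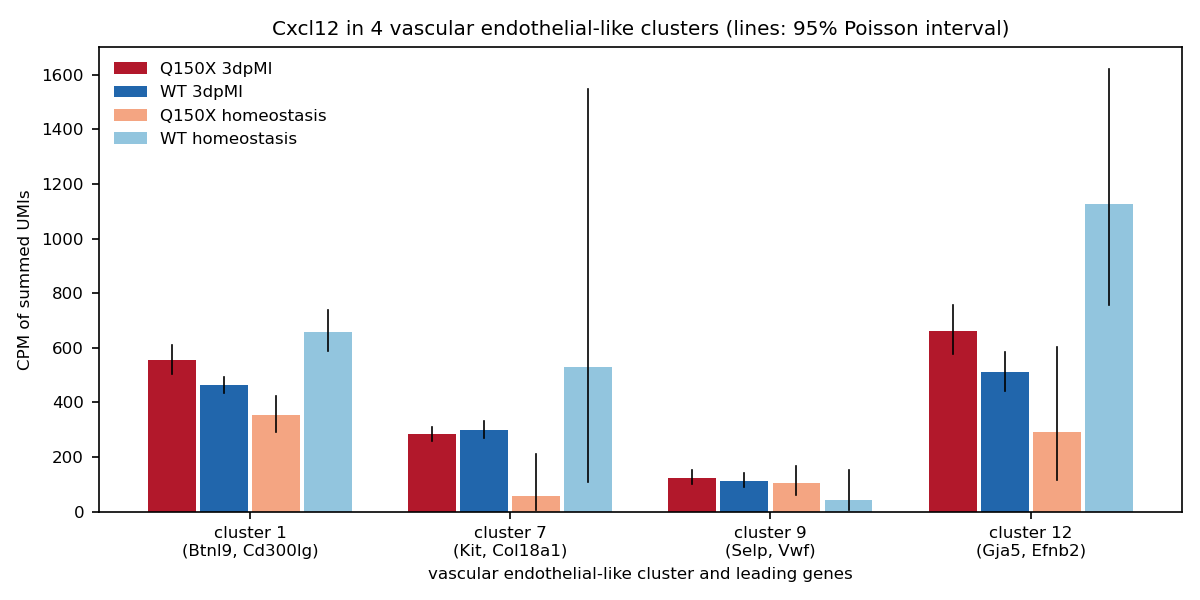
Cxcl12 level (CPM, bars, with exact 95% Poisson intervals as lines) in 4 vascular endothelial clusters, in the order Q150X 3dpMI, WT 3dpMI, Q150X homeostasis and WT homeostasis within each. In clusters 1 and 12 the WT homeostatic bars, at 659 and 1128 CPM, are the highest and the Q150X homeostatic bars, at 353 and 293 CPM, the lowest.

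Pericytes, the mural cells of capillaries, had 48.05 CPM of Cxcl12 in Q150X and 177 in WT at homeostasis, a ratio of 0.272 (0.167–0.441). Their clusters differed: cluster 3 had 36.4 CPM in Q150X and 40.6 in WT, and cluster 14 had 100 CPM in Q150X and 339 in WT. Cluster 14 held 96 of 781 pericytes in Q150X and 76 of 241 in WT, and 35 of the WT UMIs. The ratio over the class was 0.151 at the 1000-UMI minimum and 0.496 with nuclei weighted equally. At 3dpMI pericytes had 53.8 CPM in Q150X and 75.6 in WT. In fibroblasts Cxcl12 was higher after injury in both genotypes, at 63.6 CPM in Q150X and 71.2 in WT at 3dpMI, against 17.4 in Q150X and 11.99 in WT at homeostasis. The 3dpMI level was 3.66 times homeostasis (2.79–4.88) in Q150X fibroblasts and 5.94 times (3.62–10.5) in WT fibroblasts, which was 13.04 at the 1000-UMI minimum.

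The interferon-linked CXCR3 ligands and the membrane-bound Cxcl16 are given next. Cxcl10, a CXCR3 ligand, had 16.4 CPM (13.3–20.04) in Q150X and 8.898 CPM (5.701–13.2) in WT macrophages and monocytes at 3dpMI, a ratio of 1.84 (1.17–3.02), and none at homeostasis. Monocyte cluster 32, led by interferon-induced genes, had 291 CPM in Q150X and 164 in WT from 69 and 8 UMIs in 101 and 22 nuclei. Monocytes of all clusters together held 85 Cxcl10 UMIs in Q150X. Over all nuclei Cxcl10 had 223 UMIs in Q150X and 110 in WT at 3dpMI. Macrophages and monocytes held 43% of them in Q150X and 21.8% in WT, fibroblasts 21.1% in Q150X and 30.9% in WT, and vascular endothelium 15.7% in Q150X and 25.5% in WT. Cxcl10 overlaps Art3 in the annotation. Cxcl9, also a CXCR3 ligand, was at 2.23 CPM in Q150X and 3.99 in WT vascular endothelium at 3dpMI, and 10.8 in Q150X and 9.32 in WT at homeostasis, on 5 to 17 UMIs a library. Its receptor Cxcr3 did not reach 20 UMIs in any class. Cxcl16, the membrane-bound CXCR6 ligand, had 68.05 CPM in Q150X and 54.9 in WT macrophages and monocytes at 3dpMI (1.24), against 16.2 in Q150X and 0 in WT at homeostasis. Its level in dendritic cells was 69.3 CPM in Q150X and 85.8 in WT at 3dpMI. Cxcr6 itself had 2 to 15 UMIs a library in cardiomyocytes, where it overlaps Fyco1, a gene that muscle expresses, so those reads are uncertain.

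Cx3cl1 and Cxcl14 had their highest level over the libraries together in fibroblasts. Cx3cl1, the membrane-tethered ligand of CX3CR1, had 17.6 CPM in Q150X and 15.4 in WT fibroblasts at 3dpMI, and 2.13 CPM in Q150X and 2.997 in WT at homeostasis. Both infarcted hearts lay above both uninjured hearts, by 8.26 times in Q150X and 5.14 times in WT, the WT value being 10.01 where libraries were clustered separately. Vascular endothelium, a known source of it, had 13.1 CPM in Q150X and 11.97 in WT at 3dpMI. At homeostasis it had 5.39 CPM in Q150X and 9.32 in WT, above fibroblasts in both genotypes. The whole homeostatic libraries held only 18 Cx3cl1 UMIs in Q150X and 9 in WT, so that order is uncertain. In fibroblasts at 3dpMI, 15 of 26 members were higher and 11 lower in Q150X, and Cxcl14, a ligand of stromal cells, was among the lower ones. Cxcl14 was at 11.6 CPM (9.57–13.8) in Q150X and 20.9 CPM (17.7–24.5) in WT at 3dpMI, a ratio of 0.554 (0.431–0.7101). At homeostasis it was at 13.1 CPM in Q150X and 9.74 in WT, and the injury ratio was 0.882 in Q150X and 2.14 (1.22–4.12) in WT. The lower Q150X level held in cluster 5, led by Pi16, with 22.4 CPM in Q150X and 41.03 in WT, and in cluster 2, led by Postn and Kif26b, with 9.08 in Q150X and 15.1 in WT. Cluster 8 had the other order, at 60.8 CPM in Q150X and 44.5 in WT. Cluster 2 held 66.8% of fibroblasts in Q150X and 42.7% in WT at 3dpMI, and the part of this makeup in the class ratio was not tested.

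**Figure D3:**
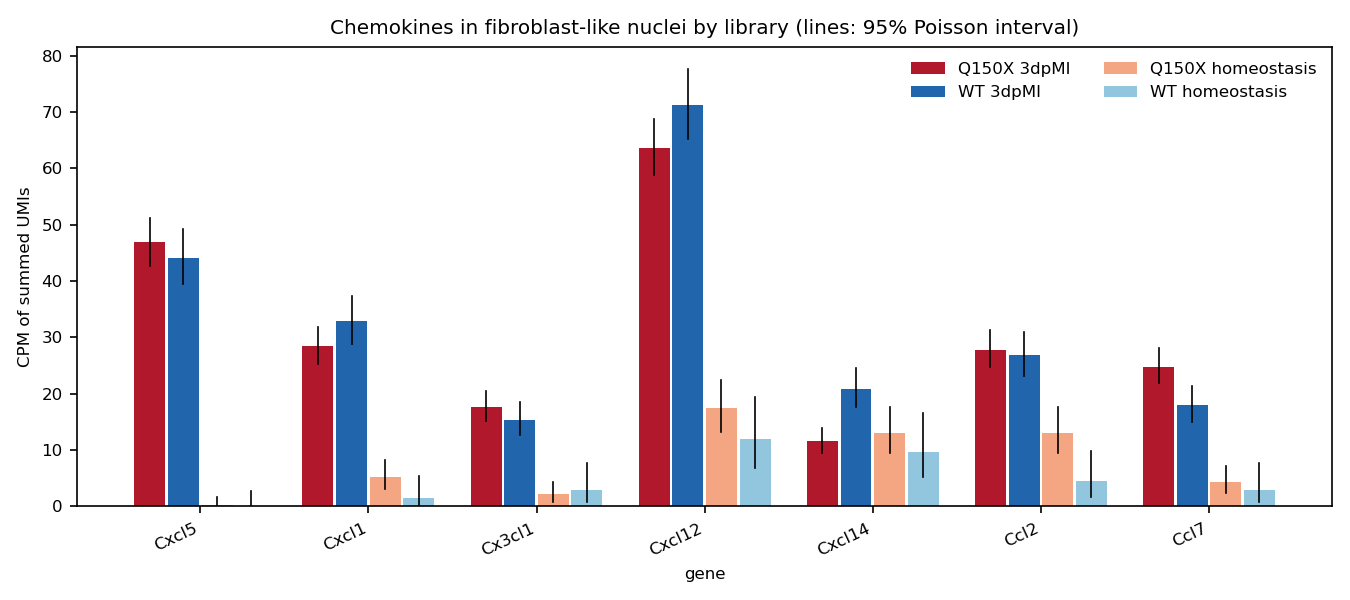
Levels of 7 ligands in fibroblasts (CPM, bars, with exact 95% Poisson intervals as lines), in the order Q150X 3dpMI, WT 3dpMI, Q150X homeostasis and WT homeostasis within each gene. Cxcl5 is at 46.9 and 44.1 CPM in the infarcted Q150X and WT hearts and at 0.305 and 0 CPM in the uninjured Q150X and WT hearts.

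The ligands of lymphoid traffic lay in lymphatic endothelium and fibroblasts. Ccl21a, the CCR7 ligand of lymphatic vessels, had 584 CPM (497–681) in Q150X and 416 CPM (347–494) in WT lymphatic endothelium at 3dpMI, and 661 CPM (502–854) in Q150X and 59.3 CPM (7.18–214) in WT at homeostasis. The WT homeostatic library was the low one, with 2 UMIs in 33 lymphatic nuclei; the other libraries held 162, 128 and 58 UMIs. The genotype ratio was 1.404 (1.11–1.78) at 3dpMI and 11.1 (2.95–94.2) at homeostasis. Ccl21b and Ccl21d, near copies of Ccl21a, were listed without a UMI, so reads of the copies cannot be told apart by these counts. Ccl19, the other CCR7 ligand, had 16 and 17 fibroblast UMIs in Q150X and WT at 3dpMI and 3 and 0 at homeostasis. Ccl19 and Ccl21a overlap the same long noncoding RNA in the annotation. That RNA is among the leading genes of fibroblast cluster 8, so the fibroblast reads of both ligands are uncertain. Ccr7, the receptor of both ligands, had 13 UMIs in Q150X and 4 in WT B cells at 3dpMI, and 1 in Q150X and 2 in WT at homeostasis.

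Ccl25, best known as the CCR9 ligand of thymus and gut, was read in every class. Fibroblasts had 84.7 CPM in Q150X and 84.9 in WT at 3dpMI, and 62.2 in Q150X and 57.7 in WT at homeostasis. Macrophages and monocytes had 61.4 CPM in Q150X and 59.7 in WT at 3dpMI, and 59.4 in Q150X and 55.8 in WT at homeostasis. Cardiomyocytes had the lowest of these levels, with 31.4 CPM in Q150X and 41.8 in WT at 3dpMI, and 36.9 in Q150X and 25.4 in WT at homeostasis. Ccl25 overlaps a long noncoding RNA in the annotation. Ccr9 had 16 and 12 fibroblast UMIs in Q150X and WT at 3dpMI, and 13 and 3 at homeostasis. Ccl11, the eosinophil chemokine eotaxin, had 17 and 19 fibroblast UMIs in Q150X and WT at 3dpMI and 5 and 2 at homeostasis. Ccl27a had 7.12 CPM in Q150X and 6.42 in WT cardiomyocytes at 3dpMI, and 4.99 in Q150X and 2.896 in WT at homeostasis; it overlaps Il11ra1.

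Among the receptors, Ccr2, the monocyte receptor for CCL2 and CCL7, was borne by dendritic cells and monocytes. Dendritic cells had 417 CPM (366–473) in Q150X and 545 CPM (454–648) in WT at 3dpMI, a ratio of 0.766 (0.616–0.958). Monocytes had 508 CPM in Q150X and 460.2 in WT (1.104, 0.963–1.27). The whole macrophage and monocyte class had 236 CPM in Q150X and 141 in WT at 3dpMI (1.68, 1.497–1.89). At homeostasis the class had 32.4 CPM in Q150X and 55.8 in WT, where the whole libraries held only 13 and 8 Ccr2 UMIs. Within the class the ratios past 2-fold at 3dpMI were those of the macrophages: resident macrophages had 99.97 CPM in Q150X and 42.8 in WT (2.34, 1.67–3.32), and repair macrophages 99.2 in Q150X and 41.4 in WT (2.395, 1.51–3.99). The resident part was a different mix of clusters in each genotype, with cluster 27 holding 205 of 459 nuclei in Q150X and 88 of 428 in WT. Class markers of cluster 27 included Gpnmb and Arg1 beside Cd163 and Mrc1, so the resident name is loose there. The part of this makeup in the Ccr2 ratio was not tested. Resident macrophages, known for low Ccr2, were 93.2% of the class in uninjured Q150X hearts and 21.2% in infarcted ones. T or NK cells had 228 CPM in Q150X and 285 in WT at 3dpMI.

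Ccr1, shared by CCL3, CCL6 and CCL9, had 99.7 CPM in Q150X and 78.2 in WT macrophages and monocytes at 3dpMI (1.27). At homeostasis it had 10.8 CPM in Q150X and 27.9 in WT, where the whole libraries held only 13 and 1 Ccr1 UMIs. The Ccr1 level at 3dpMI in monocytes was 149.9 CPM in Q150X and 135 in WT, in resident macrophages 81.7 in Q150X and 62.3 in WT, and in repair macrophages 72.6 in Q150X and 72.95 in WT. Neutrophils had 220.1 CPM of Ccr1 in Q150X and 107 in WT, from 26 and 3 UMIs.

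Cx3cr1, the fractalkine receptor of patrolling monocytes and resident macrophages, had 54.2 CPM in Q150X and 65.2 in WT macrophages and monocytes at 3dpMI (0.831, 0.689–1.004). At homeostasis it had 37.8 CPM in Q150X and 83.8 in WT, where the WT class held only 49 nuclei and 35814 UMIs. The Cx3cr1 order in the infarcted hearts was opposite to that of Ccr2 in every named part of the class: monocytes had 93 CPM in Q150X and 104 in WT, resident macrophages 41.2 and 59.5, and repair macrophages 15.4 and 21.7. These levels rest on 183 and 59 UMIs in monocytes, 63 and 64 in resident macrophages, and 22 in Q150X repair macrophages. Q150X cardiomyocytes held 54 Cx3cr1 UMIs among 3371485, and Q150X repair macrophages 22 among 1431963. The Q150X repair macrophage level was thus no higher than that of cardiomyocytes. Cx3cr1 also overlaps a long noncoding RNA in the annotation. The class interval of Cx3cr1 held 1, as did that of Ccr2 in monocytes, so counting error can give such orders. In dendritic cells Cx3cr1 was at 104 CPM in Q150X and 51.5 in WT at 3dpMI. Cxcr4, the CXCL12 receptor, had 14.02 CPM in Q150X and 7.04 in WT macrophages and monocytes at 3dpMI (1.99), and 10.8 in Q150X and 27.9 in WT at homeostasis on 2 and 1 UMIs. Vascular endothelium, where CXCR4 marks sprouting tip cells, had 8.35 CPM of Cxcr4 in Q150X and 4.46 in WT at 3dpMI. Cxcr2, the neutrophil receptor for CXCL1, CXCL2 and CXCL5, had 144 CPM in Q150X and 284 in WT neutrophils on 17 and 8 UMIs. Cxcr5, the CXCL13 receptor of B cells, had 17 and 4 B cell UMIs in Q150X and WT at 3dpMI and 0 and 5 at homeostasis; it overlaps Bcl9l.

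**Figure D4:**
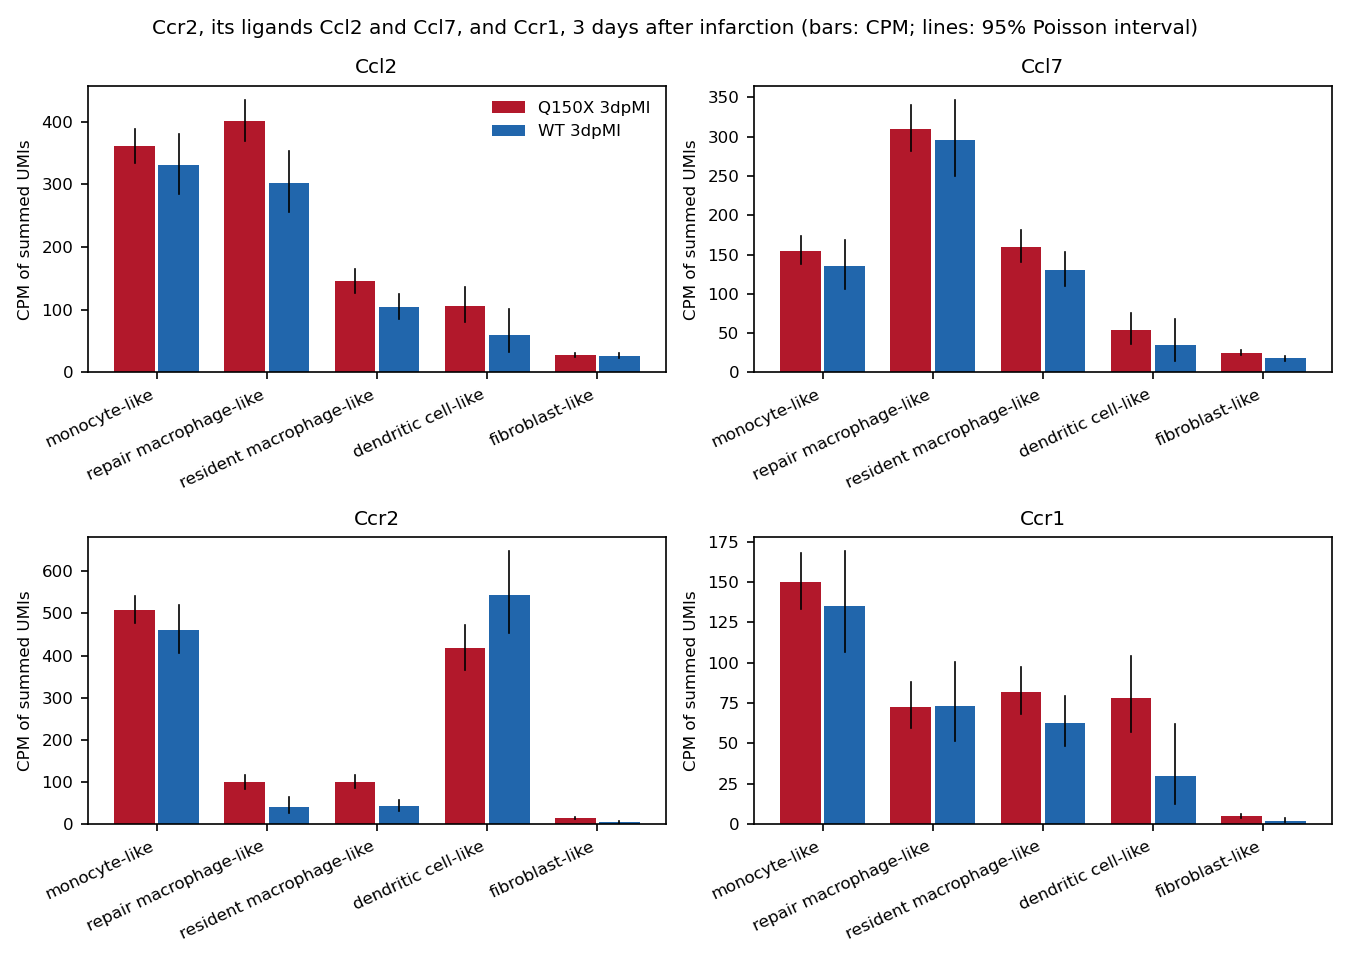
Levels of Ccl2, Ccl7, Ccr2 and Ccr1 at 3dpMI (CPM, bars, with exact 95% Poisson intervals as lines) in parts of the macrophage class, in dendritic cells and in fibroblasts, Q150X left of WT. Ccr2 is at 508 CPM in Q150X and 460.2 in WT monocytes, and at 99.97 in Q150X and 42.8 in WT resident macrophages.

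Set side by side, sources and bearers differed by axis. For the CCL2 and CCR2 pair, ligand and receptor were both highest among myeloid cells, Ccl2 in monocytes and macrophages with repair markers and Ccr2 in monocytes and dendritic cells. For CXCL12 and CXCR4, vascular endothelium held 54.1% of ligand UMIs in Q150X and 62.7% in WT at 3dpMI, and fibroblasts 28.3% and 20.5%. Pericytes held 2.44% in Q150X and 4.19% in WT, and macrophages and monocytes 4.53% and 2.22%. Of the receptor UMIs, macrophages and monocytes held 82 of 167 in Q150X and 19 of 62 in WT at 3dpMI. For CX3CL1 and CX3CR1 fibroblasts held 66.9% of ligand UMIs in Q150X and 54.7% in WT at 3dpMI, and macrophages and monocytes held 48.6% of receptor UMIs in Q150X and 41.1% in WT. Fibroblasts held 10.1% of the receptor UMIs in Q150X and 15% in WT, and cardiomyocytes 8.28% in Q150X and 16.1% in WT. For the neutrophil axis, fibroblasts carried Cxcl1 and Cxcl5, myeloid cells carried Cxcl2 and Cxcl3, and Cxcr2 had its highest level in neutrophils. Neutrophils held 17 of 94 Cxcr2 UMIs in Q150X and 8 of 38 in WT, and in Q150X fibroblasts held 22.3% and unnamed nuclei 24.5%.

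Over all nuclei at 3dpMI, 38 members had at least 20 UMIs over the libraries compared, and 14 were at least 2-fold higher and 0 at least 2-fold lower in Q150X than in WT. Among all 18725 genes tested in that way, 4.15% were 2-fold higher and 5.61% 2-fold lower, and the median log2 ratio was 0.74 for the members and 0.16 for all genes. The 14 included 8 of 26 ligands and 6 of 12 receptors, beside a macrophage and monocyte share of 29.3% of nuclei in Q150X and 14% in WT. Ccl2 was at 91.3 CPM in Q150X and 40.8 in WT (2.24, 2.08–2.41), Ccr2 at 80.8 in Q150X and 31.1 in WT (2.59, 2.39–2.82), and Cxcl2 at 46.2 in Q150X and 12.4 in WT (3.71, 3.28–4.21). Ccl8 (3.41), Cxcl3 (3.27) and Ccl4 (3.01) had the next ratios, and Ccl7 (2.06) and Ccl3 (2.09) were near the threshold. Just under 2-fold were Cxcl10 (1.89), Ccl9 (1.77) and Cxcl16 (1.72). Members of fibroblasts and vessels were not past 2-fold: Cxcl12 was at 84.4 CPM in Q150X and 97.6 in WT (0.865, 0.817–0.916), Cxcl14 at 6.54 in Q150X and 8.46 in WT (0.773), and Cxcl1 at 12.4 in Q150X and 12.2 in WT (1.01). The fibroblast members Cxcl5 (1.43) and Cx3cl1 (1.25) were higher in Q150X.

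Within classes the count of members past 2-fold was smaller in macrophages than over all nuclei. In macrophages and monocytes at 3dpMI, 1 of 23 members was 2-fold higher and 1 was 2-fold lower in Q150X, where 1.88% of all genes were higher and 3.19% lower. The median log2 ratio of the members there was 0.26, against 0.01 for all genes. Among monocytes 1 of 19 members, Cxcl10, was 2-fold higher (2.23, 1.19–4.65) and 0 lower, where 4.09% of all genes were higher and 2.43% lower. Cluster 32, which held most Q150X monocyte UMIs of Cxcl10, was 101 of 1057 monocyte nuclei in Q150X and 22 of 378 in WT. The part of this makeup in the Cxcl10 ratio was not tested. Among resident macrophages 2 of 18, Ccr2 and Cxcr4, were higher and 0 lower (2.71% and 2.57% of all genes), and among repair macrophages 1 of 17, Ccr2, was higher and 0 lower (4.38% and 2.17%). Summed macrophage markers in the class were at 9527 CPM in Q150X and 9700 in WT, with all 17 detected in both. In dendritic cells 3 of 12 members were 2-fold higher in Q150X (Cxcl2, Ccr1 and Cx3cr1) and 0 lower, where 5.79% of all genes were higher and 3.2% lower. In neutrophils 5 of 7 were higher and 0 lower (13.5% and 7.63% of all genes), the WT library there holding 29 nuclei. Macrophage markers summed to 5586 CPM in Q150X and 3943 in WT neutrophils, with 17 and 14 of 17 detected, and their part was not tested.

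In fibroblasts at 3dpMI, 10 of 26 members were 2-fold higher in Q150X and 0 were lower, where 3.09% of all genes were higher and 2.41% lower. The members' median log2 ratio was 0.14 and that of all genes 0.05. The 10 included Ccl4, Ccl6, Ccl8, Ccl9, Ccl12, Cxcl2, Ccr1, Ccr2 and Cxcr2, of which Ccr2 was at 14.9 CPM in Q150X and 4.48 in WT (3.32, 2.26–5.03) and Ccl6 at 10.4 in Q150X and 4.06 in WT (2.56). All 10 had their highest level in macrophages, dendritic cells or neutrophils. Summed macrophage markers in these fibroblasts were at 1084 CPM in Q150X and 864 in WT, with 17 and 16 of 17 detected and Ly6c2 at 0 in WT; their part in the result was not tested. Without removal of doublets 4 members were 2-fold higher, and Ccr2 stood at 1.52. The ligands whose level was highest in fibroblasts were not among the 10: Cxcl5, Cxcl1 and Cx3cl1 differed by less than 2-fold.

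In vascular endothelium at 3dpMI, Cxcl2 (11.7 CPM in Q150X and 2.82 in WT; 4.15) and Ccl8 (8.07 and 1.64; 4.91) were 2-fold higher and Cxcl1 (3.34 and 7.98; 0.419) 2-fold lower in Q150X among 22 members. Of all genes, 3% were higher and 3.21% lower. Macrophage markers summed to 856 CPM in Q150X and 627 in WT endothelium, all 17 detected in both, and their part was not tested. With libraries clustered separately 8 members were higher, and with nuclei weighted equally 7. In pericytes 5 of 13 members were 2-fold higher in Q150X and 0 lower (3.63% and 2.65% of all genes): Ccl6, Ccl7, Ccl12, Cxcl1 and Ccr1. Macrophage markers in pericytes were at 966 CPM in Q150X and 570.4 in WT, 17 and 16 of them detected, and this was not tested further. In cardiomyocytes 4 of 14 members were 2-fold higher (Ccl2, Ccl7 and Ccr1 among them) and 1, Cxcl16, lower in Q150X (4.58% and 4.17% of all genes), with macrophage markers at 297 CPM in Q150X and 156 in WT, 17 and 16 detected. Ccr2 in cardiomyocytes, which are not known to bear it, was at 6.53 CPM in Q150X and 4.58 in WT.

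**Figure D5:**
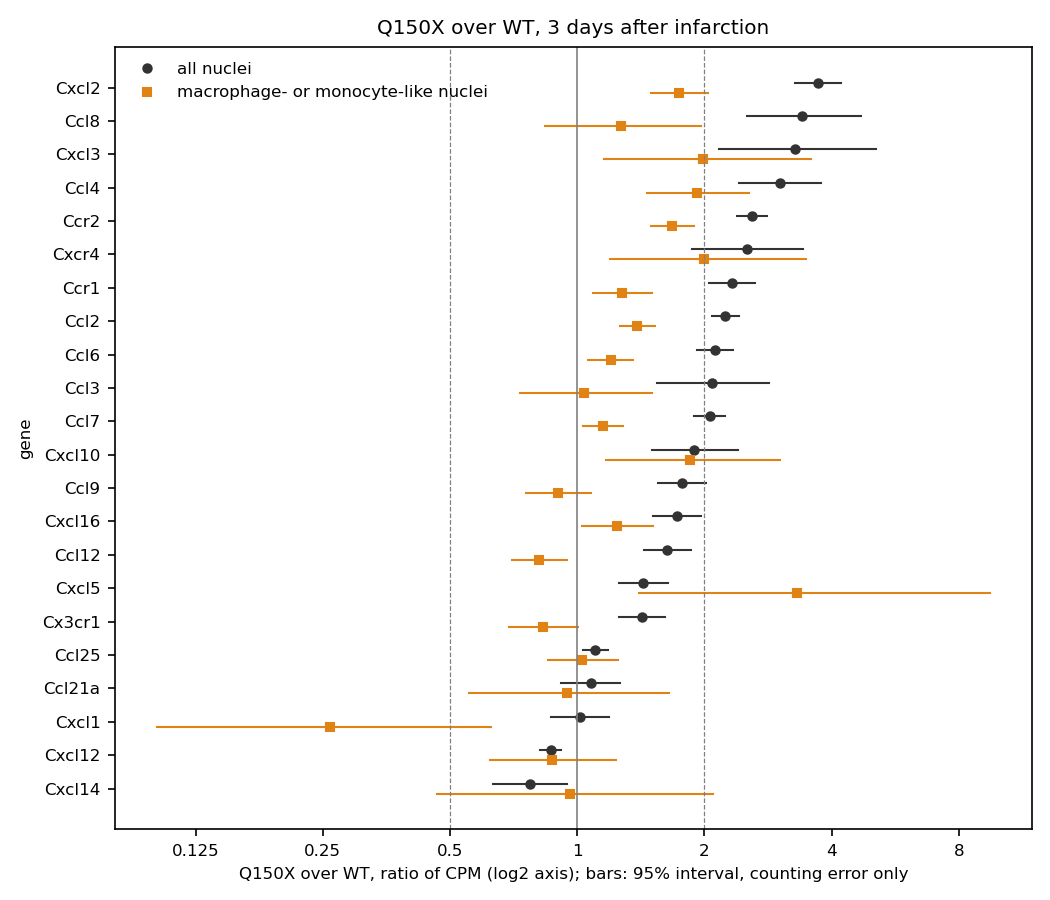
Ratio of CPM in Q150X over WT at 3dpMI (log2 axis, exact 95% intervals as lines, dashed lines at 2-fold) for 22 of the 23 members with at least 20 UMIs over both libraries in macrophages and monocytes, over all nuclei (circles) and in that class (squares). The circles for Cxcl2 (3.71), Ccr2 (2.59) and Ccl2 (2.24) lie beyond the 2-fold line and their squares (1.74, 1.68 and 1.39) inside it.

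Infarction was accompanied by higher levels of most members in both genotypes. Over all nuclei, 24 of 36 members were 2-fold higher and 2 were lower at 3dpMI than at homeostasis in Q150X, where 26.5% of all genes were higher and 10.3% lower. In WT 26 of 34 members were higher and 1 was lower, where 30.2% of all genes were higher and 4.83% lower. The injury and genotype comparisons share libraries, so their values are not independent. The members' median log2 ratio was 2.27 in Q150X and 2.43 in WT, against 0.40 and 0.55 over all genes. Ccl2 was at 91.3 CPM at 3dpMI and 7.04 at homeostasis in Q150X, 12.97 times higher (10.02–17.1), and at 40.8 and 1.27 CPM in WT, 32.1 times higher (15.5–80.04). Cxcl2 was 194 times higher (53.5–1600) in Q150X and 34.3 times higher (9.41–284) in WT, each on 2 homeostatic UMIs. Ccr2 was 52.1 times higher in Q150X and 21.4 times in WT, the WT value being 57.8 at the 1000-UMI minimum. The members 2-fold lower were Cxcr5 in both genotypes (0.496 in Q150X and 0.271 in WT) and Ccl24 in Q150X (0.359).

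The nuclei with resident macrophage markers were compared across injury as well. In Q150X hearts they were 459 nuclei at 3dpMI and 245 at homeostasis and came from different clusters, with 241 of the homeostatic nuclei but 17 of those at 3dpMI in cluster 24. At 3dpMI 237 lay in cluster 21 and 205 in cluster 27. In Q150X, 9 of 16 members were 2-fold higher and 0 lower at 3dpMI (20.7% and 8.1% of all genes). Among them Ccl2 was 6.15 times higher (2.37–22.8), Ccl7 6.76 times and Ccr1 6.92 times, on 4, 4 and 2 homeostatic UMIs. Ccl6 was at 0.6398 of its homeostatic level (0.456–0.919) and Cx3cr1 at 0.997, so these did not share the direction of Ccl2. In WT, with 428 such nuclei at 3dpMI and 43 at homeostasis, 1 of 14 members was 2-fold higher and 1 lower (10.1% and 10.4% of all genes), and the members' median log2 ratio was -0.21 in WT and 1.36 in Q150X, against -0.46 in WT and 0.20 in Q150X over all genes. Ccl2, Ccl4, Ccl7, Ccl12, Cxcl2 and Cxcl16 had no UMI in the WT homeostatic nuclei, so their WT ratios are lower bounds, set against a floor of 3 counts. Those nuclei held only 31317 UMIs, so the floor is high, and the bounds enter the WT count and median. The WT count and median therefore cannot show how far these members rose in WT, and the contrast with Q150X is not a result.

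In fibroblasts, 16 of 24 members were 2-fold higher and 1, Ccr9 (0.396), lower at 3dpMI in Q150X, where 21.4% of all genes were higher and 8.13% lower. In WT fibroblasts 15 of 19 were higher and 0 lower (23.4% and 5.41% of all genes). Ccl2 was at 27.8 CPM at 3dpMI and 13.1 at homeostasis in Q150X fibroblasts (2.12), and at 26.9 and 4.495 CPM in WT fibroblasts (5.99). A marker gate on each nucleus gave 3.53 in Q150X and 19.2 in WT for Ccl2. Ccl7 was at 24.8 CPM at 3dpMI and 4.27 at homeostasis in Q150X, and at 17.9 and 2.997 CPM in WT. Macrophage markers in fibroblasts summed to 1084 CPM at 3dpMI and 797 at homeostasis in Q150X, and to 864 and 754 CPM in WT, with 17, 13, 16 and 14 of 17 detected; their part was not tested. In vascular endothelium 13 of 19 members were 2-fold higher and 0 lower in Q150X (21.1% and 6.27% of all genes), and 8 of 19 higher and 1, Cxcl9 (0.428), lower in WT (21.5% and 2.85%), beside macrophage markers of 856 and 370.1 CPM in Q150X and 627 and 345 CPM in WT.

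Between genotypes at homeostasis, 9 of 17 members over all nuclei were 2-fold higher and 1 was lower in Q150X, where 8.99% of all genes were higher and 1.28% lower. The median log2 ratio was 1.22 for the members and 0.27 for all genes. The 9 included Ccl2, Ccl6, Ccl7, Ccl9, Ccl21a, Cxcl1, Cxcl14 and Cxcl16, and the lower one was Cxcl12. Ccl6 was at 11.3 CPM in Q150X and 1.996 in WT (5.68), and Ccl21a at 10.3 in Q150X and 1.27 in WT (8.08, 3.76–20.7). Cxcl12 was at 35.3 CPM in Q150X and 75.8 in WT (0.466, 0.3998–0.542), a ratio that was 0.265 at the 1000-UMI minimum and 0.686 with nuclei weighted equally. Ccl6 was 10.1 and Cxcl16, here 2.63, was 14.8 at the 1000-UMI minimum, where 5 members in all were higher. Within classes, 2 of 6 members were 2-fold higher and 0 lower in fibroblasts (6.23% and 1.19% of all genes), and 0 of 2 higher and 1, Cxcl12, lower in vascular endothelium (8.28% and 2.33%). Pericytes had 0 of 2 higher and 1, again Cxcl12, lower (8.98% and 4.32%), and lymphatic endothelium had the 1 member tested, Ccl21a, higher (9% and 5.17%). Macrophages and monocytes were 263 nuclei in Q150X and 49 in WT, so the myeloid members rest on few WT cells. Within fibroblasts, which were plentiful in both, Ccl2 was at 13.1 CPM in Q150X and 4.495 in WT (2.92, 1.24–8.39), a ratio of 1.51 at the 1000-UMI minimum and of 8.26 under separate clustering of each library.

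Genes that work with chemokines were followed in 4 lists. Over all nuclei at 3dpMI, 4 of 9 atypical receptors and related ligands were 2-fold higher in Q150X and 0 lower. They were Ackr1, which holds chemokines on venous endothelium (2.802), Pf4, a platelet and macrophage CXC ligand (45.8 CPM in Q150X and 17.8 in WT), Ppbp (3.06) and Cd74. Cd74, among the leading genes of dendritic cell cluster 28, was at 71.8 CPM in Q150X and 35.1 in WT. Of 16 signalling genes, 3 were 2-fold higher (Plcb2, Vav1 and Dock2, the last a leukocyte guanine exchange factor at 872 CPM in Q150X and 415 in WT) and 0 lower. Of 11 inducers of chemokine genes tested, 1, Tnf, was 2-fold higher (10.3 and 4.53 CPM), and of 10 adhesion genes, 2 were, Itga4 among them. In macrophages and monocytes no gene of any of the lists passed 2-fold in either direction, among 6, 15, 10 and 9 tested: Tnf stood at 1.499 and Pf4 at 1.56. In that class 1.88% of all genes were higher and 3.19% lower, so a count of 0 among so few genes is near the background. The counts over all nuclei for those lists compare with 4.15% of all genes higher and 5.61% lower. Across injury in Q150X, 4 of 9, 12 of 16, 6 of 11 and 8 of 10 genes of the lists were 2-fold higher, where 26.5% of all genes were, and 1 atypical receptor, Ackr4 (0.377), was 2-fold lower, where 10.3% were. In WT 3 of 7, 11 of 16, 7 of 11 and 9 of 10 were higher and 0 lower, where 30.2% of all genes were higher and 4.83% lower. Ackr3, the scavenging receptor of CXCL12, was at 80.5 CPM in Q150X and 49.3 in WT vascular endothelium at 3dpMI, a ratio of 1.63.

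Vegfa, the edited gene, was at 686 CPM in Q150X and 594 in WT cardiomyocytes at 3dpMI, and 923 in Q150X and 714 in WT at homeostasis. Over all nuclei the order was the reverse, at 133.4 CPM in Q150X and 215.8 in WT at 3dpMI, and 374.9 and 426.2 at homeostasis. A transcript with a premature stop codon is still counted, so these levels do not check the genotype label.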

How the data were processed

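Nuclei for 4 libraries, 1 per group, were captured with the 10x 5' kit v2, per the labels' protocols. The authors deposited UMI counts per gene and nucleus, raw and not normalized, on GRCm39, per the submitters' processing notes. The file headers name Cell Ranger 7.1.0. No source used here says whether counting used strand. Nuclei with at least 500 UMIs, 300 genes and at most 10% mitochondrial UMIs were kept. Doublets were marked with Scrublet per library; in Q150X homeostasis its automatic threshold marked 0.0154%, so nuclei were dropped from the top score down, at 0.8% per 1000 nuclei. All libraries entered 1 clustering, with no batch integration (scanpy 1.11.5, leidenalg 0.10.2: 10000 counts per nucleus, log, 2000 variable genes without the members, 30 components, 15 neighbours, resolution 1). Clusters high in Ptprc were clustered again. The resulting 37 clusters were named when at least 3 markers of 1 of 17 lists led, which gave 14 classes; 4 stayed unnamed, and a difference from the study's own cell types may come from these rebuilt names. UMIs were summed per class and library. Ratios need 20 nuclei per library and 20 UMIs over both; 2-fold is a description of size, and a library at 0 was set to 3 counts. Members with 20 UMIs in a class are named, and those with 100 UMIs have values in every library; some genes that the totals count are not reported here by name. Members and lists were chosen with earlier results of these data known. The scripts were tested on simulated data.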

Additional observations from a re-analysis of the deposited data

Results flagged for a closer look

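For 3 members the intervals of the same ratio lay on opposite sides of 1 in different settings, and the difference between the ratios was not tested, since each group is 1 library. Cxcl14 over all nuclei was lower in Q150X than in WT at 3dpMI (0.773, 0.6304–0.948) and higher at homeostasis (2.32, 1.29–4.44). Ccl25 in cardiomyocytes was lower in Q150X than in WT at 3dpMI (0.753, 0.598–0.941) and higher at homeostasis (1.45, 1.08–1.96). Cxcl12 in vascular endothelium was higher at 3dpMI than at homeostasis in Q150X (1.35, 1.13–1.61) and lower in WT (0.582, 0.517–0.657).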

How the results depend on the processing

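No paired analysis was possible because each group is 1 library and no label pairs the libraries. Of 238 named member ratios, 121 were past 2-fold, and none of these 121 turned to the other side of 1 under an alternative, while some ratios nearer to 1 crossed it (Cx3cr1 in fibroblasts, 0.721 between genotypes at 3dpMI, reached 1.48). Of the 121, 87 stayed past 2-fold under every alternative, and 1633 of 1735 alternative values lay inside the counting interval. Counts of members past 2-fold moved as follows; the cause was not tested, except that a minimum of 50 or 5 UMIs changes how many members are tested. Over all nuclei, the lower count at 3dpMI against homeostasis in WT (1) was 0 at 1000 UMIs per nucleus, 4 under median-of-ratios scaling, 0 at 50 UMIs and 2 at 5 UMIs; in Q150X (2) it was 1 at 1000 UMIs per nucleus, 1 without doublet removal, 1 with nuclei weighted equally and 0 at 50 UMIs. Between genotypes at homeostasis, the higher count (9) was 5 at 1000 UMIs per nucleus, 5 at 50 UMIs and 14 at 5 UMIs, and the lower count (1) was 0 with nuclei weighted equally and 2 at 5 UMIs. Between genotypes at 3dpMI, the lower count over all nuclei (0) was 2 with nuclei weighted equally and 1 at 5 UMIs. In macrophages and monocytes the higher count (1) was 3 at resolution 2, with members kept in the clustering, without doublet removal, with libraries clustered separately, with a marker gate per nucleus and at 5 UMIs, 2 at 1000 UMIs per nucleus, at 5% mitochondrial UMIs and with nuclei weighted equally, and 0 at 50 UMIs; the lower count (1) was 0 at 50 UMIs and 3 at 5 UMIs. In fibroblasts the higher count (10) was 4 without doublet removal, and the lower count (0) was 1 at resolution 2, with members kept, at 1000 UMIs, without doublet removal and with the gate, and 2 at 5 UMIs. In vascular endothelium the higher count (2) was 4 at 1000 UMIs, 8 with libraries clustered separately, 4 with the gate, 7 with nuclei weighted equally, 1 at 50 UMIs and 5 at 5 UMIs; the lower count (1) was 2 at resolution 2, at 1000 UMIs, with separate clustering and under median-of-ratios scaling, 0 with nuclei weighted equally and at 50 UMIs, and 3 at 5 UMIs. Median-of-ratios scaling shifted the median log2 ratio of all genes to 0.01 from 0.55 across injury in WT and to 0.01 from 0.40 in Q150X, and that of the members to 1.89 in WT and 1.88 in Q150X. Depth limits homeostasis most: the WT library held 49 macrophages and monocytes, where 0 Ccl2 UMIs allow up to 103 CPM.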
